A study of Drosophila melanogaster with 4 samples.

Results

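The 39 genes described here encode regulators of the G1/S transition and proteins that copy DNA. They were chosen by name from a list of G1/S and replication genes, matched to NCBI gene numbers by symbol (34 genes) or synonym (5 genes), and all 39 were listed in every library, among 13997 genes listed in all. RNA was sequenced from dissected central nervous systems of Drosophila melanogaster larvae at 96 hours after egg laying, in 2 control and 2 reprogrammed samples, each pooled from 70 to 100 nervous systems. In control larvae the driver repo-Gal4 expressed the fluorescent protein mRFP (genotype repo-Gal4>mRFP). In the larvae that the labels call reprogrammed, it expressed constitutively activated Egfr and constitutively activated PI3K92E, the catalytic subunit of phosphoinositide 3-kinase. Both groups carry repo-Gal4, which is active in glia, and the RNA comes from the whole nervous system, so transcripts of glia, neurons and dividing progenitors were measured together. In such bulk samples, fewer cells of a type and less RNA per cell cannot be told apart, and the groups differ in every element of genotype that mRFP and the activated transgenes bring.

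A cell commits to copying its genome when Cyclin E with Cdk2, and Cyclin D with Cdk4, release the transcription factor E2f1 and its partner Dp from inhibition by Rb-family proteins. E2f1 and Dp then switch on genes for replication proteins. Before that point the origin recognition complex, Cdc6 and Cdt1 (dup in flies) load the ring of Mcm proteins onto DNA, and in S phase Cdc45 and the GINS complex turn this ring into the active helicase. In the larval nervous system, neural stem cells, ganglion mother cells and optic lobe progenitors divide, some glia divide or copy their genome without division, and most neurons have left the cell cycle.

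None of the 39 genes passed the test in either direction. Their levels were mostly somewhat lower in reprogrammed samples: 35 of 39 fitted changes were below 0, against 61.2% of all tested genes, and the median change was −0.44 on the log2(FPKM + 1) scale, against −0.25 over all 9851 genes tested. FPKM are fragments scaled to transcript length and to the mapped total, so levels can be compared between genes. Changes are given as the reprogrammed mean less the control mean of log2(FPKM + 1), so that those of low genes are understated. The test was limma, two-sided, with Benjamini-Hochberg adjustment over all genes tested and a threshold of 0.05. Among all tested genes, 8.13% were called lower and 4.11% higher. At an unadjusted p under 0.05, 7 of the 39 were lower and 0 higher, where the shares of all tested genes were 23.4% and 10.7%. The 7 were CycE, Dp, Caf1-180, Cdk2, E2f1, dup and Mcm2, and their adjusted p lay between 0.0545 and 0.118. Labels do not say whether the pools of a group came from separate crosses, so p-values measure only the spread between these libraries, which may be technical.

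The libraries themselves set the limits of the comparison. From the steps between low FPKM values, 1 FPKM over 1 kilobase was worth 10.9 to 11.8 reads per library. The fewest estimated reads of any member in a library were 30, for Psf1 in control 1, a counting error of 18.3%, and 30 of the 39 had at least 100 estimated reads in every library. All 39 passed the filter of 1 FPKM in at least 2 libraries. PolE1 passed through the controls alone, so its lower level in reprogrammed samples is partly fixed by the filter. Egfr stood at 8.60 and 11.4 against 58.9 and 49.3 FPKM, and Pi3K92E at 8.28 and 17.1 against 287 and 253 FPKM, controls first. The files do not separate transgene from endogenous transcripts of these genes. The control pair lay further apart than the reprogrammed pair, by an SD of 0.879 on the log2 scale over all tested genes, compared with 0.589.

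**Figure D1:**
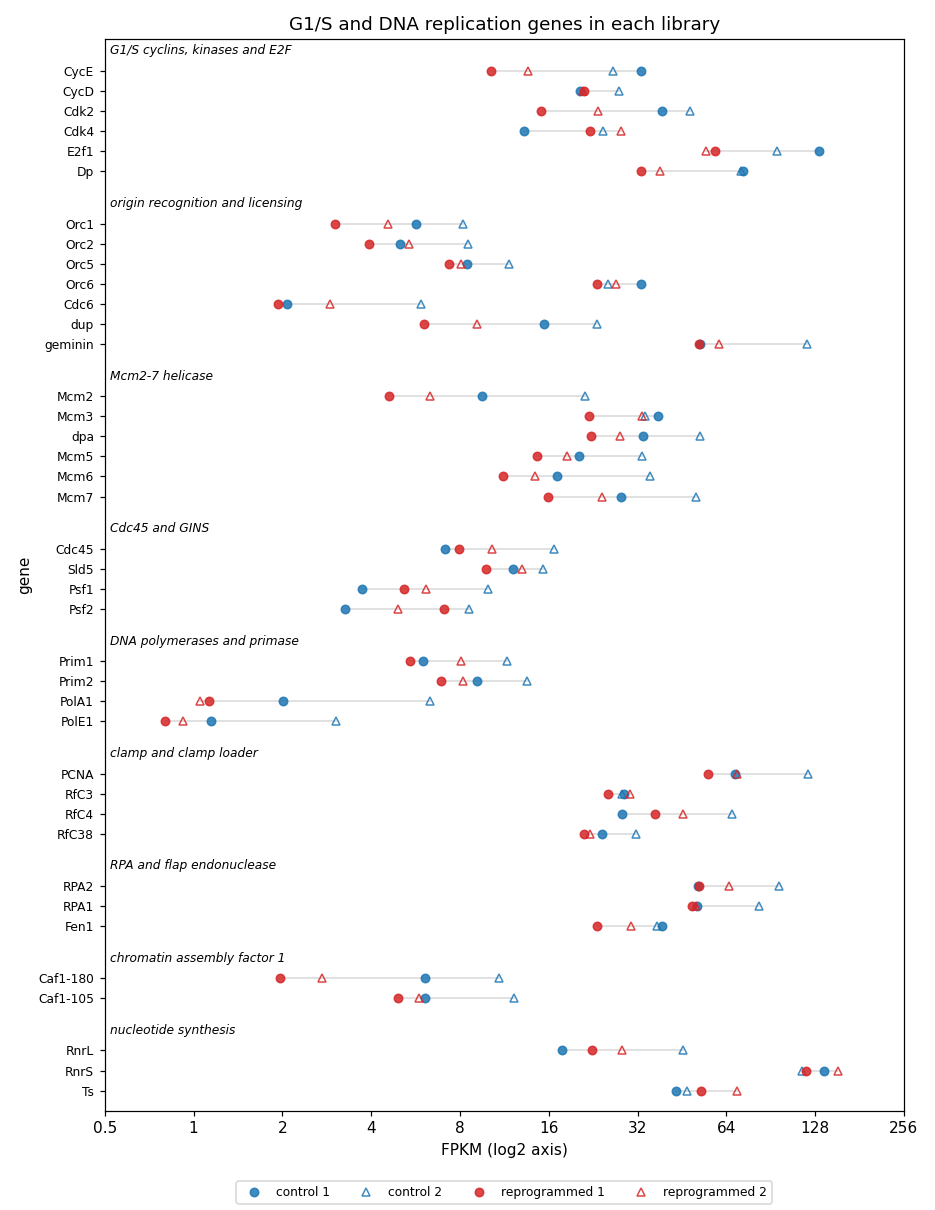
FPKM of each of the 39 genes in the 4 libraries on a log2 axis, grouped by role (circles, replicate 1; triangles, replicate 2; blue, control; red, reprogrammed). For CycE, Cdk2, E2f1, Dp and dup both red points lie well to the left of both blue points, whereas for many replication genes control 1 lies close to the reprogrammed libraries and control 2 alone lies to the right.

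Of the 6 cyclin, kinase and E2F genes, 4 were among the 7 with an unadjusted limma p under 0.05. At that threshold 23.4% of all tested genes were lower, and whether this role differed from others was not tested. CycE (NCBI gene 34924) encodes Cyclin E, the partner of Cdk2 that starts S phase, and read 33.0 and 26.5 FPKM in control 1 and 2 and 10.2 and 13.6 FPKM in reprogrammed 1 and 2. Its mean was 29.7 ± 4.54 FPKM in control and 11.9 ± 2.36 FPKM in reprogrammed samples (SD, n = 2 each), a change of −1.26 ± 0.31 (SE; limma adjusted p = 0.0545). Both reprogrammed libraries lay below both controls, and control 1 was the higher control. Cdk2 (NCBI gene 42453), the kinase of Cyclin E, read 38.8 and 48.3 FPKM in the controls, against 15.0 and 23.5 in reprogrammed samples. The groups did not overlap, and the change was −1.16 ± 0.33 (SE; limma adjusted p = 0.0702).

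The transcription factor pair had the same pattern. E2f1 (NCBI gene 42550), the activating E2F, had 132 and 95.2 FPKM in the controls, against 58.4 and 54.6 in reprogrammed samples, or 114 ± 26.0 FPKM in control and 56.5 ± 2.67 FPKM in reprogrammed samples (SD, n = 2 each). Dp (NCBI gene 36461), its DNA-binding partner, had 73.2 and 71.7 FPKM in the controls, against 32.9 and 38.0 in reprogrammed samples. The controls of Dp were nearly equal, and both reprogrammed libraries were at about the same lower level, with a ratio of group means of 0.489 for Dp and 0.498 for E2f1. Changes were −1.01 ± 0.26 (SE; limma adjusted p = 0.0573) for Dp and −0.98 ± 0.29 (SE; limma adjusted p = 0.0737) for E2f1. The 95% intervals of the change, −2.03 to −0.48 for CycE, −1.98 to −0.34 for Cdk2, −1.66 to −0.37 for Dp and −1.68 to −0.27 for E2f1, lay below 0 before adjustment for the number of genes tested. All 4 kept a negative change under each of the 3 other scalings. With all libraries brought to the same sum of FPKM they passed, with adjusted p of 0.0373 for CycE, 0.0499 for Cdk2, 0.0367 for Dp and 0.0378 for E2f1, where 12.4% of all tested genes were called lower. On a common median they did not pass (0.123 for CycE, 0.121 for Cdk2, 0.169 for Dp and 0.29 for E2f1), nor with quantiles made equal (0.109, 0.0835, 0.0651 and 0.079 in the same order). For E2f1, whose annotated transcript is 4778 bases long, the change was −0.46 (adjusted p = 0.311) with the trend on transcript length removed.

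In the Cyclin D branch the groups overlapped, and its difference from the other cyclin, kinase and E2F genes was not tested. CycD, which encodes the cyclin that carries growth signals to Cdk4, had 20.5 and 27.6 FPKM in the controls, against 21.0 and 20.9 in reprogrammed samples. Its change was −0.18 ± 0.30 (SE; limma adjusted p = 0.714) with a 95% interval of −0.91 to 0.56, and it was 0.15 on a common median. Cdk4 had 13.2 and 24.5 FPKM in the controls, against 22.0 and 28.1 in reprogrammed samples, the highest fitted change of the 39 at 0.44 ± 0.38 (SE; limma adjusted p = 0.466), and its groups overlapped because control 2 lay above reprogrammed 1. The 95% interval for Cdk4, −0.51 to 1.39, reaches from a decrease to a rise of more than 1.

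Of the licensing genes, dup had the most negative fitted change, though differences between these genes were not tested. The gene dup encodes Cdt1, which brings the Mcm ring to origins, and read 15.5 and 23.2 FPKM in the controls, against 6.03 and 9.17 in reprogrammed samples. Both reprogrammed libraries lay below both controls, with a change of −1.24 ± 0.37 (SE; limma adjusted p = 0.0772). Its inhibitor geminin, which blocks a second round of licensing, read 52.0 and 119.9 FPKM in the controls, against 51.9 and 60.7 in reprogrammed samples. Control 1 and reprogrammed 1 were almost equal for geminin, and control 2 alone was high, so the change was −0.49 ± 0.44 (SE; limma adjusted p = 0.479).

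Origin recognition subunits were low to moderate in level. Orc1, the largest subunit, read 5.66 and 8.19 against 3.01 and 4.55 FPKM and did not overlap between groups (change −0.73, limma adjusted p = 0.224). Orc2 read 5.01 and 8.51 against 3.92 and 5.36 FPKM, and Orc5 read 8.44 and 11.8 against 7.36 and 8.05 FPKM. Orc6, the smallest subunit, was the most abundant of the 4 at 33.0 and 25.4 against 23.4 and 27.0 FPKM, with overlapping groups. Their changes were −0.43 for Orc2, −0.34 for Orc5 and −0.20 for Orc6, and each became slightly positive under another scaling (0.034 and 0.065 for Orc2 and Orc5 after quantile normalization, 0.13 for Orc6 on a common median). Cdc6, the loader that acts with Orc and Cdt1, read 2.07 and 5.92 against 1.94 and 2.90 FPKM, with control 2 above the other 3 libraries.

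The 6 genes of the Mcm ring were lower in both reprogrammed libraries than in both controls, where 40.8% of all tested genes had this order. Their median change was −0.82, and none passed. Mcm2 read 9.50 and 21.3 FPKM in the controls, against 4.59 and 6.33 in reprogrammed samples, and its change was −1.26 ± 0.46 (SE; limma adjusted p = 0.118). Control 2 was above control 1 by 1.09 on the log2 scale for Mcm2, close to the change itself. Mcm7 read 28.2 and 50.4 against 15.9 and 24.2 FPKM (change −0.91) and Mcm6 17.0 and 35.2 against 11.2 and 14.4 FPKM (change −0.90). In both genes the level of control 1 was nearer to reprogrammed 2 than to control 2. The other ring genes were dpa, which encodes Mcm4, at 33.5 and 52.3 against 22.2 and 27.8 FPKM, and Mcm5 at 20.2 and 33.0 against 14.6 and 18.5 FPKM. Mcm3 differed from the others in that its controls were close, at 37.6 and 34.0 against 21.8 and 33.1 FPKM, and reprogrammed 2 almost reached them. The changes were −0.73 for dpa, −0.63 for Mcm5 and −0.40 for Mcm3, and none of the 6 changed sign in any setting tried.

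Transcripts for the proteins that complete the helicase showed overlapping groups throughout, as did those of 3607 of all 9851 tested genes. Cdc45 read 7.11 and 16.7 against 7.96 and 10.2 FPKM, and the GINS genes Sld5, Psf1 and Psf2 stood between 3.25 and 15.3 FPKM in all libraries. For Cdc45, Psf1 and Psf2 control 1 was the lowest of the 4 libraries and control 2 the highest. The median change of the 4 was −0.18, and the 95% interval for Psf1 alone was −1.30 to 1.08. Psf2 had the only positive change, at 0.12.

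Genes of the polymerases were among the least abundant of the 39. PolA1 (DNApol-alpha180), the catalytic subunit of the polymerase that starts each new strand, read 2.01 and 6.33 FPKM in the controls, against 1.13 and 1.05 in reprogrammed samples. Both reprogrammed libraries were near 1 FPKM, and control 2 was 1.28 above control 1 on the log2 scale, so the change of −1.17 ± 0.48 (SE; limma adjusted p = 0.154) did not pass. PolE1 (DNApol-epsilon255), the catalytic subunit of the polymerase assigned to the leading strand, read 1.15 and 3.03 against 0.80 and 0.92 FPKM. Its change of −0.66 was 0.02 with the trend on transcript length removed, and at 6849 bases its annotated transcript is the longest of the 39. The primase genes Prim1 (DNApol-alpha50), which makes the RNA primer, and Prim2 (DNApol-alpha60), its partner, read 6.0 and 11.6 against 5.42 and 8.05 FPKM and 9.17 and 13.6 against 6.92 and 8.20 FPKM, with changes of −0.30 and −0.51.

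PCNA encodes the sliding clamp that holds polymerases on DNA, and read 68.3 and 121 FPKM in the controls, against 55.5 and 69.6 in reprogrammed samples. Control 1 and reprogrammed 2 were equal within 2 FPKM and control 2 was the highest, and the change was −0.54 ± 0.36 (SE; limma adjusted p = 0.343). The clamp loader gene RfC3 was level across all 4 libraries, at 28.8 and 28.4 against 25.4 and 30.3 FPKM. Its 95% interval, −0.72 to 0.63, leaves room for a change of less than 1 in either direction on the log2 scale. RfC4 read 28.3 and 66.8 against 36.7 and 45.5 FPKM, with the controls as its lowest and highest libraries, and RfC38 read 24.3 and 31.6 against 21.1 and 22.0 FPKM. The changes were −0.09 and −0.35, with a positive value of 0.24 for RfC4 on a common median.

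Single-stranded DNA is covered by RPA, and flaps at the ends of Okazaki fragments are cut by Fen1. RPA1 (RpA-70), the large subunit, read 51.0 and 82.5 against 48.9 and 50.5 FPKM, and RPA2 read 51.5 and 96.7 against 51.7 and 65.3 FPKM. Control 1 was nearly equal to reprogrammed 1 for RPA2 and slightly above both reprogrammed libraries for RPA1. Fen1 read 38.8 and 37.3 against 23.3 and 30.5 FPKM, with controls that agreed closely and a change of −0.50 ± 0.28 (SE; limma adjusted p = 0.274). New DNA is packed with histones by chromatin assembly factor 1. Its large subunit gene Caf1-180 (NCBI gene 31801) had the most negative fitted change of the 39. Caf1-180 read 6.07 and 10.8 FPKM in the controls, against 1.96 and 2.73 in reprogrammed samples, a change of −1.46 ± 0.39 (SE; limma adjusted p = 0.0634), and Caf1-105 read 6.09 and 12.2 against 4.94 and 5.80 FPKM, a change of −0.61. In both genes each reprogrammed library lay below each control.

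Of the enzymes that make DNA building blocks, Ts and RnrS had positive fitted changes. Ts, thymidylate synthase, read 43.2 and 47.0 FPKM in the controls, against 52.6 and 69.8 in reprogrammed samples. It was the only one of the 39 with both reprogrammed libraries above both controls, an order that 22.6% of all tested genes had, and its change was 0.42 ± 0.28 (SE; limma adjusted p = 0.345). RnrS, the small subunit of ribonucleotide reductase, was the most abundant of the 39, at 138 and 115 against 119 and 154 FPKM. The libraries of RnrS overlapped, with a change of 0.10 whose 95% interval was −0.60 to 0.80. The change of RnrS was negative on a common sum (−0.17) and with quantiles made equal (−0.072). The large subunit gene RnrL read 17.8 and 45.8 against 22.4 and 28.3 FPKM, where control 2 stood 1.32 above control 1 on the log2 scale, the widest gap of the 39.

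**Figure D2:**
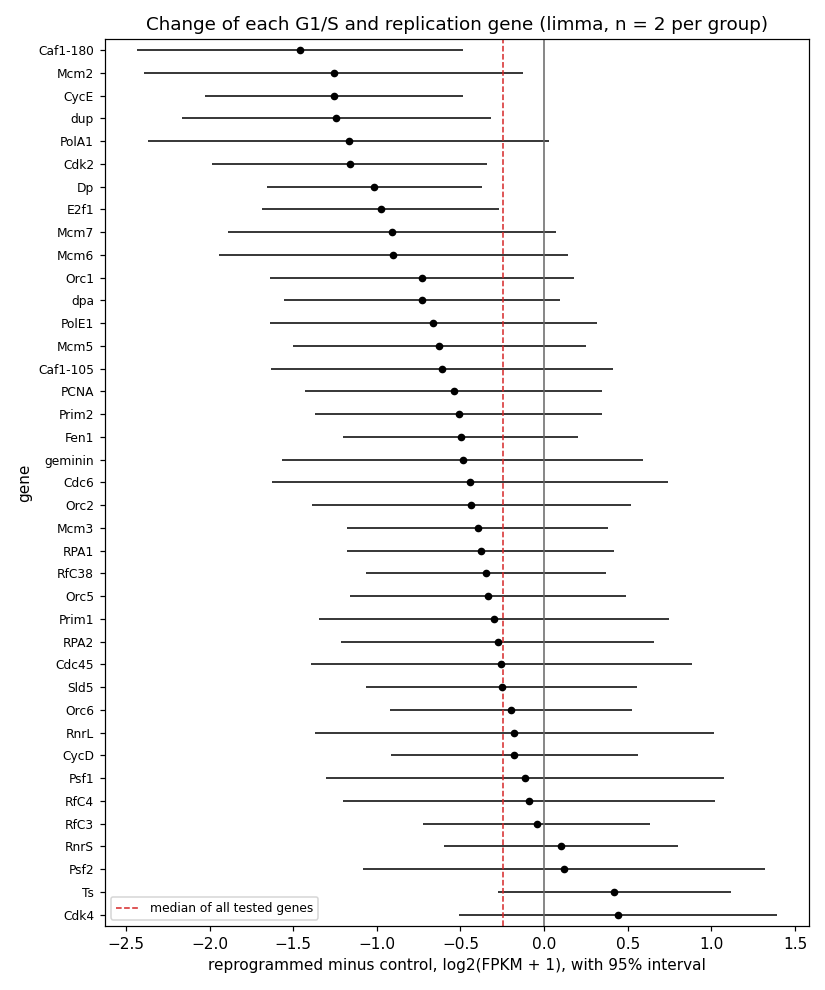
Change of each gene between groups (reprogrammed minus control, log2(FPKM + 1)) as points with limma's 95% intervals before adjustment (n = 2 per group), ordered by change; the dashed line is the median of all tested genes, −0.25. The intervals of 7 genes end below 0 and those of the other 32 include 0.

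Across roles, the median change was −1.0 for the 6 cyclin, kinase and E2F genes, −0.44 for the 7 licensing genes, −0.82 for the 6 Mcm genes, −0.18 for Cdc45 and GINS, −0.59 for the polymerase and primase genes, −0.22 for the clamp and its loader, −0.38 for RPA and Fen1, −1.03 for the 2 chromatin assembly genes and 0.10 for nucleotide synthesis. Differences between roles were not tested. In 21 of the 39 genes both reprogrammed libraries lay below both controls, against 40.8% of all tested genes. In 17 genes the groups overlapped, as they did in 3607 of all 9851 tested genes. The intervals were wide: 33 of the 39 included a decrease of 1 on the log2 scale, and 4 genes (CycD, Orc6, RfC3 and RnrS) had an interval that lay wholly within 1 of 0. The smallest change among all genes called was 1.09, and 7 of the 39 had a change of −1 or below. How many of all tested genes had a change of −1 or below was not counted.

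The controls differed from each other for most of these genes. Control 2 was above control 1 in 31 of 39, against 64.8% of all tested genes, with a median difference of 0.68 against 0.31. In 10 of the 39 it was above by at least 1 on the log2 scale, against 15.8%, and control 1 was above by that much in none. The 10 were Mcm2, Mcm6, Cdc6, geminin, Cdc45, Psf1, Psf2, PolA1, RfC4 and RnrL. In 25 of the 39 the gap between the controls was larger than the change between groups. How many of all tested genes had so large a gap was not counted. CycE, E2f1, Dp, Mcm3, Orc6, RfC3, Fen1 and RnrS were the 8 with control 1 above control 2. Reprogrammed 2 was likewise above reprogrammed 1 in 35 of 39, against 61.6% of all tested genes, with a median difference of 0.32 against 0.08. Of the 39, 28 were higher in replicate 2 of both groups, an order that was not counted over all tested genes.

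**Figure D3:**
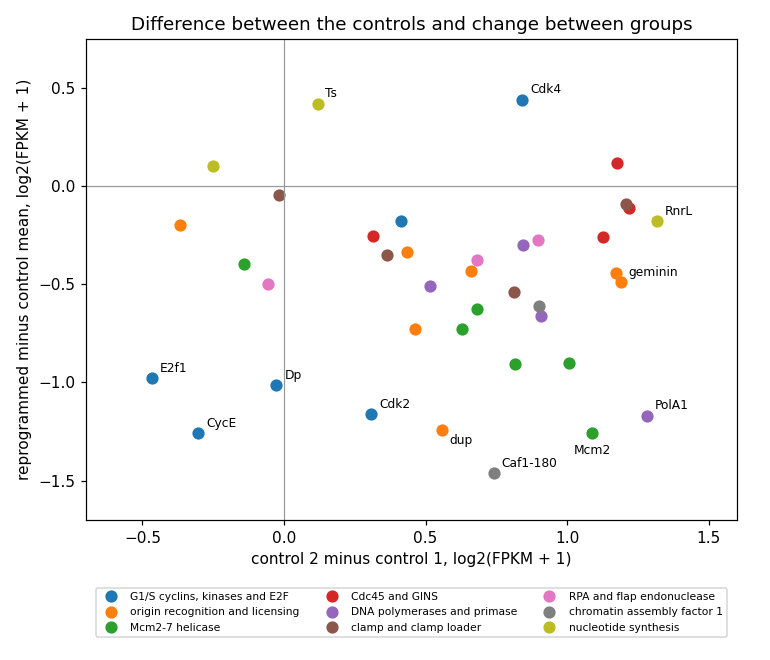
Control 2 minus control 1 (x axis) against the change between groups (y axis), both on the log2(FPKM + 1) scale, with 1 point per gene coloured by role; both axes use the control values, so no correlation is given. CycE, E2f1, Dp and Cdk2 lie low with control differences between −0.47 and 0.31, while Mcm2, PolA1, geminin and RnrL lie far to the right with control differences above 1.

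The number of genes that passed differed with the control that was left out. Without control 1, 18 of the 39 were called lower, and without control 2, 3 were (CycE, Dp and E2f1), against 33.6% and 16.7% of all tested genes called lower in those fits. Without reprogrammed 1 or 2 the member median was −0.32 and −0.62, against −0.22 and −0.29 over all tested genes. A fit that leaves out a control takes its spread from the reprogrammed pair alone, which lay closer together, and assumes that the remaining control varies as much. Geminin, called lower at −1.08 without control 1, was at 0.11 without control 2. RnrL was at −0.84 and 0.48 in the same fits. CycE, Dp and E2f1 kept no call without reprogrammed 1 or without reprogrammed 2. Their changes in those fits were −1.07 and −1.44 for CycE, −0.91 and −1.12 for Dp and −1.02 and −0.93 for E2f1.

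Transcripts listed as markers of other tissues differed between the same libraries. The 7 fat body markers summed to 230 FPKM in control 1 and 1393 in control 2, and to 66.9 and 511 in reprogrammed 1 and 2. The 8 muscle markers summed to 92.2 and 490.0 FPKM in the controls and to 42.4 and 140.3 in the reprogrammed libraries, so both lists were higher in replicate 2 of each group. Of the 7 fat body markers 1 was called lower, and of 7 tested muscle markers none was. The 7 salivary gland markers summed to 1017 and 229 FPKM in the controls and 4.62 and 16.6 in the reprogrammed libraries, with Sgs1, Sgs3, Sgs7, Sgs8 and ng1 at 0 in at least 1 library; 3 were tested and none was called. The 5 ring gland markers ranged from 356 to 967 FPKM in sum and the 9 blood cell markers from 338 to 764, with 0 and 1 called lower. Of 10 imaginal disc markers 4 were called lower, with sums of 207 and 169.9 against 113.7 and 119.6 FPKM. Among all tested genes 8.13% were called lower. Whether transcripts of these lists came from the named tissues or from the nervous system itself was not tested. The part of these tissues in the levels of the replication genes was not tested.

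Markers of dividing and of differentiated neural cells had lower medians than the replication genes, a difference that was not tested. The lists also differ in transcript length, with a median of 2214 bases for the 39 genes. It was 2740.5 for neural stem cell, 2801.5 for optic lobe progenitor, 5533 for newborn neuron and 6101.5 for mature neuron markers. The part of length in these medians was not tested. The counts called in each list stand beside 8.13% of all tested genes called lower and 4.11% called higher. Of 10 neural stem cell markers 8 were called lower and none higher, with a median change of −2.28. Their summed level was 133 and 160.3 FPKM in the controls and 23.8 and 32.4 in the reprogrammed libraries. All 5 markers of ganglion mother cells and newborn neurons were called lower (median −2.26, sums 559 and 340.2 against 68.9 and 101.1 FPKM). Of 10 optic lobe progenitor markers 5 were called lower and none higher (median −1.53, sums 189.8 and 193 against 98.6 and 91.9 FPKM). Among these slp1 alone had a positive change, and it is named here after its values were seen. It read 9.78 and 21.2 against 40.4 and 29.7 FPKM (change 1.20, limma adjusted p = 0.114). Of 12 mature neuron markers 10 were called lower and none higher (median −1.79, sums 647 and 588 against 120.8 and 174 FPKM). Of 12 glial markers 8 were called higher and none lower (median 1.76, sums 953 and 1261 against 3501 and 3339 FPKM). No marker of these 5 lists was at 0 in any library. These lists were chosen with their direction in these libraries known, and their part in the levels of the replication genes was not tested.

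Other genes of the same process gave a similar count. Of 42 further G1/S and replication genes 1 was called lower, against 8.13% of all tested genes. None was called higher and 41 did not pass (median change −0.57). The one called was chif, which encodes the Dbf4 activator of the kinase that fires origins. It fell from 18.5 ± 2.70 to 5.93 ± 0.16 FPKM (SD, n = 2 each), by −1.49 ± 0.31 (SE; limma adjusted p = 0.041), with both controls close together. Its call was lost with libraries on 1 median (change −1.18, adjusted p = 0.0701), with quantiles made equal (−1.11, 0.0947), with length accounted for (−0.81, 0.132) and with no filter on low values, where the change is the same (0.0864). Without reprogrammed 1 or 2 the change of chif was −1.46 and −1.51, and the call was lost with a larger SE (0.79 in both; adjusted p = 0.419 and 0.288). Its kinase, Cdc7, named here after its values were seen, read 6.79 and 16.3 against 2.50 and 3.14 FPKM (adjusted p = 0.0724). The most abundant genes without a call were dUTPase, which keeps uracil out of DNA, at 470.0 and 334 against 320.1 and 463 FPKM, and RPA3, the small RPA subunit, at 225 and 143 against 161 and 190.2 FPKM. The inhibitors of Cyclin E were named after their values were seen: dap, the fly p21/p27 relative, read 78.0 and 53.0 against 34.7 and 42.0 FPKM (change −0.74, adjusted p = 0.16), and ago, which marks Cyclin E for destruction, read 21.0 and 22.4 against 9.48 and 9.91 FPKM (change −1.09, adjusted p = 0.0618).

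Genes of mitosis act later in the same cycle. Of 48 mitosis genes 1 was called lower, against 8.13% of all tested genes. None was called higher and 47 did not pass. All 48 fitted changes were below 0, against 61.2% of all tested genes. At an unadjusted limma p under 0.05, 17 were lower and 0 higher, against 23.4% and 10.7%. In 40 of the 48 both reprogrammed libraries lay below both controls, against 40.8%. The median change was −0.92, against −0.44 for the 39 G1/S and replication genes. The difference between these lists was not tested. Cenp-C, a protein of the centromere, was the one called, at 5.10 and 9.33 against 1.46 and 1.68 FPKM (−1.63 ± 0.38 (SE; limma adjusted p = 0.0497)), and its call was lost with a pseudocount of 0.1 (change −2.07, adjusted p = 0.0525), with quantiles made equal (−1.15, 0.0568), with length accounted for (−1.13, 0.125) and with no filter on low values, where the change is the same (0.109). Without reprogrammed 1 or 2 the change of Cenp-C was −1.57 and −1.69, and the call was lost with a larger SE (0.79 and 0.78; adjusted p = 0.382 and 0.211). In mitosis genes the controls also differed, with control 2 above control 1 in 40 of 48 and a median difference of 0.73. Over all tested genes the share was 64.8% and the median difference 0.31.

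**Figure D4:**
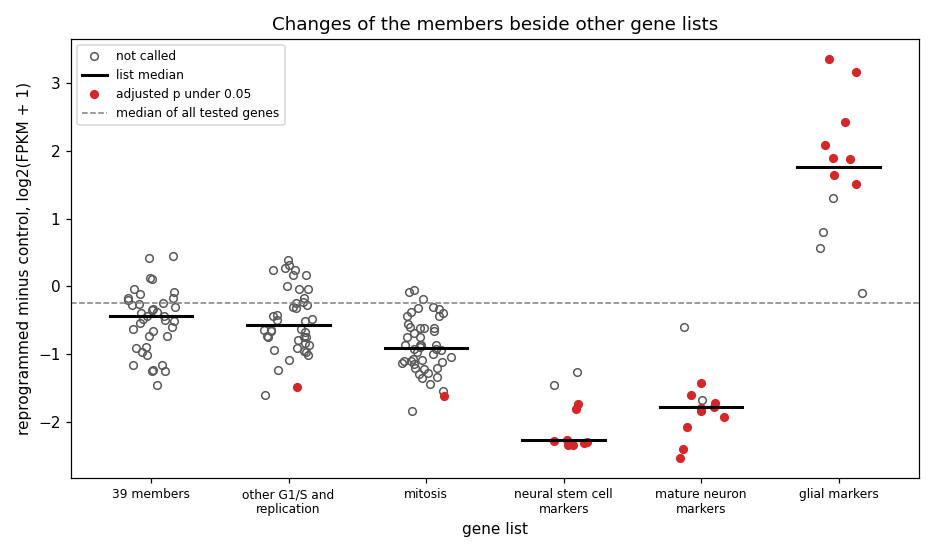
Change of every tested gene (reprogrammed minus control, log2(FPKM + 1)) in the 39 members, further G1/S and replication genes, mitosis genes and 3 marker lists; filled red points passed at an adjusted p under 0.05, bars are list medians and the dashed line is the median of all tested genes. No member is filled, and the member median of −0.44 lies closer to the dashed line at −0.25 than the medians of the neural stem cell (−2.28) and mature neuron (−1.79) markers do. Median transcript length was 2214 bases for the members, 2740.5 for neural stem cell and 6101.5 for mature neuron markers.

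Transcript length moved with the changes. The 8 members with an annotated transcript longer than 3000 bases (PolE1, E2f1, PolA1, Caf1-180, CycE, Orc1, dup and dpa) had a median change of −1.07, and the 31 shorter ones of −0.35. Over all tested genes the medians were −0.84 for 2888 longer and −0.04 for 6950 shorter transcripts. With the length trend removed the member median was −0.54 against −0.26 over all genes. No member passed, where 3.37% of all tested genes were called lower. Under that setting CycE was at −0.85 (adjusted p = 0.133), PolA1 at −0.67 (0.401), Caf1-180 at −1.04 (0.139) and dup at −0.996 (0.124), whereas Cdk2, with a transcript of 2224 bases, was at −1.19 (0.0717) and Dp, of 2526 bases, at −0.95 (0.0803).

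The scaling of the libraries shifted all genes. Over all tested genes the median was 0.06 with libraries scaled to 1 median of FPKM, −0.49 when scaled to 1 sum and −0.04 with quantiles made equal. The member median was −0.15, −0.67 and −0.24 under the same settings, so relative to the median gene the 39 stood between −0.21 and −0.18, and at −0.20 as reported. Fitted changes below 0 numbered 25, 37 and 28 of 39 in that order.

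**Figure D5:**
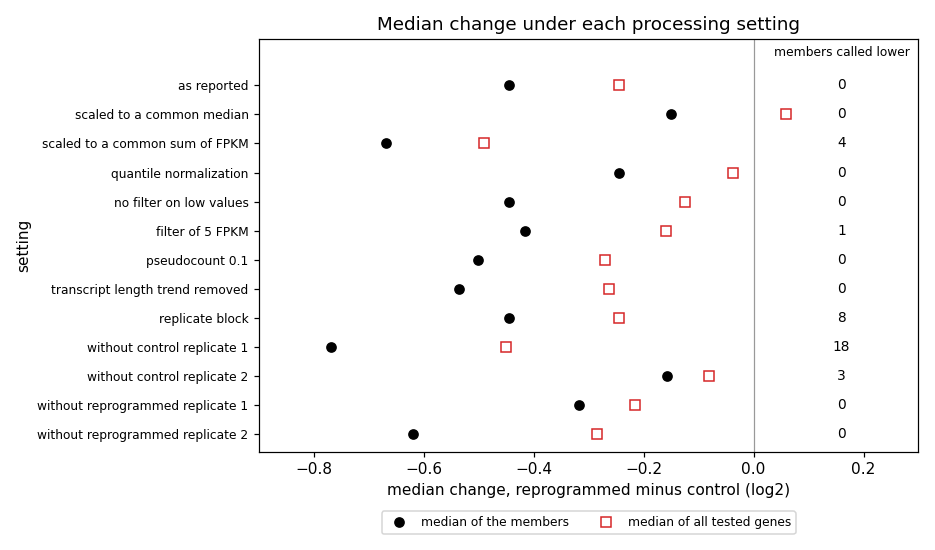
Median change of the 39 genes (black circles) and of all tested genes (red squares) under each processing setting, with the number of members called lower at the right. The member median was below 0 and below the median of all tested genes in every setting shown, and members were called lower in 5 of the 12 alternatives.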

How the data were processed

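The authors deposited 1 table per library of FPKM, per the file headers, and the values carry 2 decimals. Per the labels' protocols, mRNA was selected with oligo(dT) beads and copied from random primers, with no step that marks strand, so overlapping and antisense genes cannot be told apart. The submitters' processing notes name Bowtie2 and HISAT; which versions, quantifier and genome build were used is not given in the sources used here. No coordinates or sequences are printed. A gene missing from a table was set to 0. Names came from a RefSeq gene table, and transcript lengths (longest annotated) from an Ensembl annotation. Of 226 names in all lists, 217 matched a symbol, 7 a synonym and 2 (Tipin, phm) were left out.

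Read equivalents came from steps between low values of single-transcript genes over 600 bases (95.3% to 97.7% whole within 0.15 reads, 30.0% by chance). FPKM are not counts, so limma (lmFit, eBayes with trend) was fitted on log2(FPKM + 1) to the 9851 genes that reached 1 FPKM in 2 or more libraries, with 2 residual and 3.72 prior degrees of freedom. On simulated data the test recovered few of the smallest changes put in and nearly all of the largest, so an uncalled gene is not shown to be unchanged. The simulation gave all genes and libraries the same SD, whereas the real control pair lay further apart than the reprogrammed pair. Recovery in these data may therefore differ. The members and lists were chosen with earlier results of these data known. All members are named. Of the further replication genes, called ones and the 2 most abundant uncalled are named, and of mitosis genes the called ones. Any other gene named is marked in the text. In all, 12 alternatives were tried. R 4.3.3, limma 3.58.1, Python 3.11.15, numpy 2.4.6, pandas 2.3.3 and matplotlib 3.10.9 were used.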

Additional observations from a re-analysis of the deposited data

How the results depend on the processing

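The count of members called lower was 0 as reported, where 8.13% of all tested genes were called lower. It stayed 0 with no filter (0.0% of all tested genes), a pseudocount of 0.1 (6.99%) and the length trend removed (3.37%). The same held on a common median (4.46%) and with quantile normalization (2.53%). The count was 4 on a common sum of FPKM (12.4% of all tested genes called lower). It was 1, CycE, with a filter of 5 FPKM, under which 36 members were tested (11.1%). With the replicate number as a replicate block it was 8 (19.4%). The titles give the numbers and no label says what they share, so whether the replicates are paired is not known. Differences between replicates 1 and 2 correlated at −0.0347 across genes between the groups. Whether libraries of the same number share a factor was not tested. The block leaves 1 residual degree of freedom, and limma set the prior degrees of freedom to infinity. Each gene's own spread was thereby replaced by a trend over all genes, so the 8 calls do not reflect a smaller spread. For CycE the SE was 0.42 with the block and 0.31 as reported, yet the limma adjusted p was 0.0149 and 0.0545. With 1 library left out the count ranged from 0 to 18, and the member median from −0.77 to −0.16. No member was called higher in any setting. With no filter limma called 0 genes of 13997 in either direction, with 3629 at an unadjusted p under 0.05. Of the values of single members under alternatives, 392 kept direction and side of the threshold, 34 passed that had not, and 39 changed sign, in 17 genes that were uncalled, with adjusted p of at least 0.147. After quantile normalization these were Cdc45 (0.11), Cdc6 (0.075), Orc2 (0.034), Orc5 (0.065), Prim1 (0.13), Psf1 (0.36), RfC3 (0.074), RnrS (−0.072) and Sld5 (0.091). On a common median they were Cdc45 (0.059), CycD (0.15), Orc6 (0.13), Prim1 (0.0062), Psf1 (0.19), RPA2 (0.061), RfC3 (0.29), RfC4 (0.24), RnrL (0.15) and Sld5 (0.063), with RPA3 and dUTPase (both 0.30). On a common sum they were Psf2 (−0.12) and RnrS (−0.17), and with the length trend removed PolE1 (0.024), Psf2 (−0.26) and RnrS (−0.10). Leave-one-out values that crossed 0 ranged from −0.82 to 0.31 for Cdc45, from −1.03 to 0.14 for Cdc6, from −0.38 to 0.030 for CycD, from −1.08 to 0.11 for geminin, from −0.72 to 0.12 for Prim1, from −0.72 to 0.50 for Psf1, from −0.47 to 0.71 for Psf2, from −0.72 to 0.17 for RPA2, from −0.17 to 0.078 for RfC3, from −0.70 to 0.51 for RfC4, from −0.84 to 0.48 for RnrL, from −0.079 to 0.28 for RnrS, from −0.36 to 0.28 for RPA3 and from −0.31 to 0.22 for dUTPase. The causes were not tested. With 2 libraries per group, an exact permutation test could not go below p = 0.333.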
